A study of Mus musculus with 12 samples.

Results

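Cholesterol supply to the mitochondrion was followed through 6 genes, Star, Tspo, Stard3, Scarb1, Soat1 and Lipe, taken by symbol from a table of 26214 genes, and all 6 were present. They were read in 12 polyA RNA libraries of mLTC-1, an immortalized line of mouse Leydig cells that was grown with serum. The 6 control libraries came from cells given DMSO, and the 6 MSNBA libraries from cells given 100 µM of MSNBA, a small molecule with a benzodioxole amine joined to a nitrophenyl sulfone, which the series calls an inhibitor of the fructose transporter Glut5. Both groups were exposed for 24 h, no hormone is named in either arm, and a single cell line serves as the model. Nothing in the labels ties replicates to separate cultures, and p-values therefore measure the spread between these libraries, which may be technical.

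Leydig cells make androgens from cholesterol. The sterol is taken up from lipoproteins or released from stored esters, passed through the cytoplasm and carried to the inner mitochondrial membrane, where the side chain is cleaved. Delivery to that membrane by the Star protein is the acutely regulated step of steroid production, and Star transcription is a classical target of luteinizing hormone and cyclic AMP. The members are described in the order of import (Star, Tspo), transfer and uptake (Stard3, Scarb1) and ester storage (Soat1, Lipe).

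Library totals ran from 59113 to 657251 counts, and a level below is given as CPM, its count scaled by the library total. The controls held 679637 counts together and the MSNBA libraries 1598290. Depth thus differed between the groups, and raw counts of the 2 groups cannot be compared directly. All 7 Leydig markers (Cyp11a1, Cyp17a1, Hsd3b1, Insl3, Lhcgr, Nr5a1 and Star) had enough counts to be tested, with a summed level of 7490 to 10905 CPM in controls and 7569 to 9388 CPM in MSNBA libraries. The summed level of 9 macrophage markers was at most 83.4 CPM in any control and 29.0 CPM in any MSNBA library, that of 5 endothelial markers at most 50.8 and 21.2 CPM, and that of 7 Sertoli cell markers at most 68.7 and 79.7 CPM. For 6 fibroblast and peritubular markers the highest sums were 143 and 127 CPM, and for 6 germ cell markers 155 and 138 CPM. For 5 adrenal cortex markers the highest sums were 439 and 447 CPM, more than in any other list outside Leydig cells. Among these markers 1 gene, Mrap, was high enough to be tested, with 254 counts in controls and 585 in MSNBA. Cyp11b2 was at 0 in all libraries, and Cyp11b1 and Mc2r were at 0 in controls. Controls 2 and 4 stood apart from the other controls: Ddit3, a stress-induced transcription factor gene picked here after its values were seen, measured 2259 and 1229 CPM in them, against 417 to 653 CPM in the other 4. The columns of the table form 3 runs of 4 libraries. The first run holds controls 1, 3, 5 and 6, the second controls 2 and 4 with MSNBA 3 and 5, and the third MSNBA 1, 2, 4 and 6. What the runs stand for is not labelled, so treatment is compared within a run only in the second, and in the other runs position and treatment cannot be told apart. The group labels, those of controls 2 and 4 and MSNBA 3 and 5 included, could not be checked from the sources used here, and all group means and the values within the second run rest on them.

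Star, whose protein brings cholesterol to the inner mitochondrial membrane, showed no difference past the threshold between the groups, but varied widely within each of them. Star measured 312, 740, 286, 577, 389 and 330 CPM in controls 1 to 6. In MSNBA replicates 1 to 6 it measured 467, 339, 447, 616, 336 and 656 CPM. Controls 2 and 4 were the highest controls and MSNBA 4 and 6 the highest treated libraries, and the groups overlapped over most of their range, as the plot of members by library shows. Group means were 439 ± 181 CPM for controls and 477 ± 135 CPM for treated libraries (SD, n = 6 each), and the exact two-sided permutation test of the difference gave p = 0.669. In bulk RNA a difference in the share of cells that express a gene and one in its RNA per cell cannot be told apart.

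**Figure D1:**
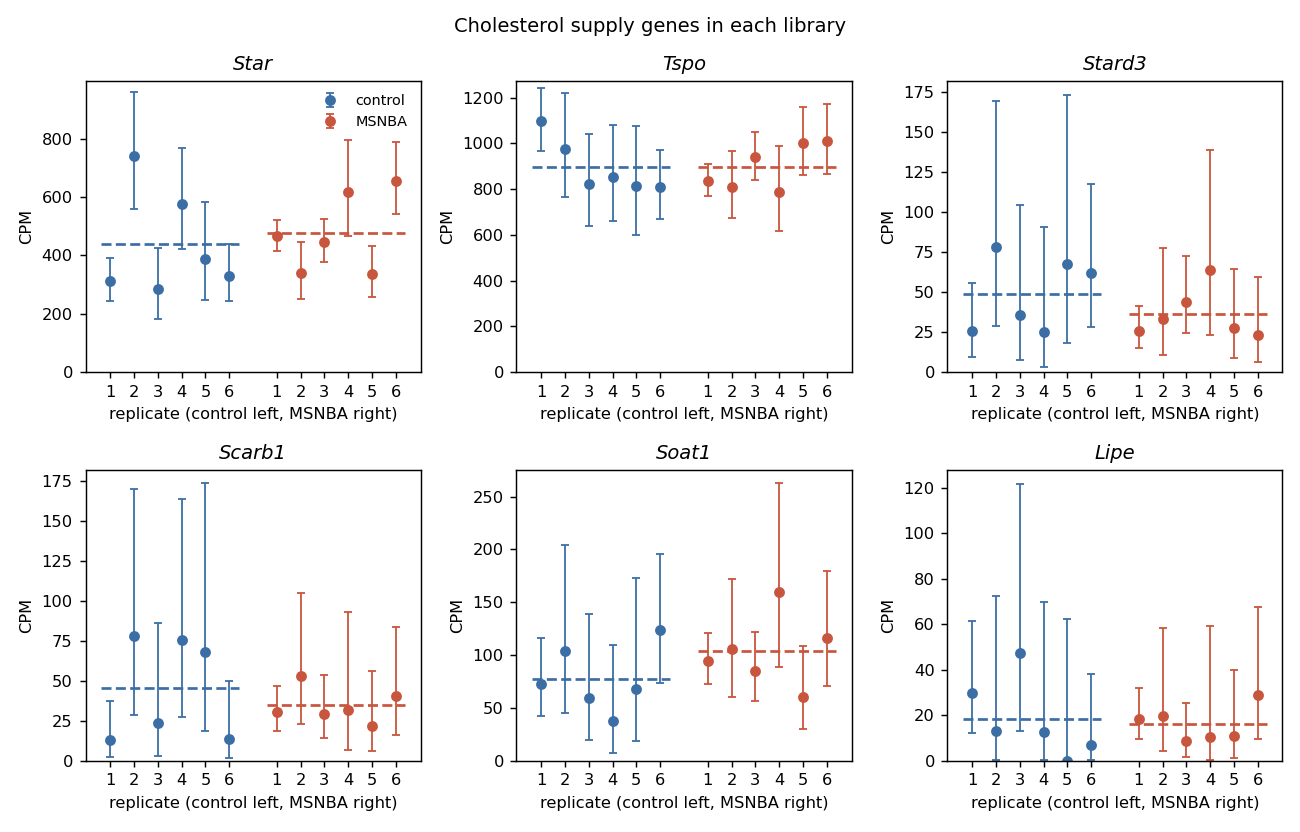
Level of each member in CPM of the library total (vertical axis) by replicate (horizontal axis), controls in blue and MSNBA in red. Points are libraries, bars the 95% exact Poisson intervals (counting error only) and dashed lines the group means: Star is high in controls 2 and 4 and in MSNBA 4 and 6, while Tspo stays between 786 and 1097 CPM.

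The spread of Star exceeded counting error. In control 2, 57 Star counts gave a 95% exact Poisson interval of 560 to 959 CPM, which lies above the intervals of control 1 (244 to 392 CPM), control 3 (183 to 425 CPM) and control 6 (243 to 437 CPM). In MSNBA 6, 113 counts gave 541 to 789 CPM, above the intervals of MSNBA 2 (252 to 445 CPM) and MSNBA 5 (257 to 431 CPM). These intervals cover counting error only. The biological coefficient of variation is the replicate spread within groups that remains after counting error. The edgeR estimate used here draws each gene toward genes of similar level. It was 0.28 for Star, higher than in 97.6% of the 2614 tested genes. Of the 100 tested genes closest to Star in mean level, 95 had a smaller coefficient, and their median was 0.14. Without controls 2 and 4 the coefficient of Star was 0.16, higher than in 90.5% of the 3076 genes tested then. The plot of replicate spread against level places Star above most genes of its level, and Tspo (0.13) and Soat1 (0.13) among them.

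**Figure D2:**
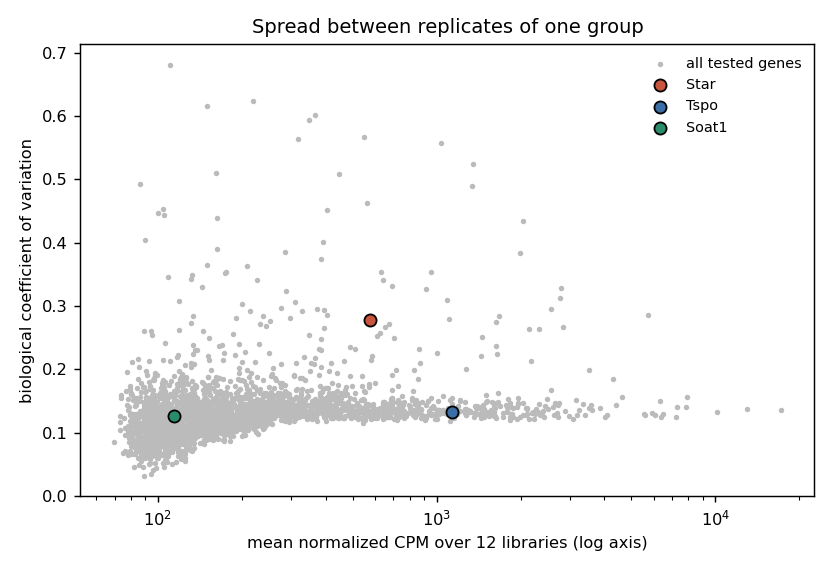
Biological coefficient of variation of each tested gene (vertical axis) against its mean normalized CPM (horizontal log axis), with grey points for all 2614 tested genes and large points for Star, Tspo and Soat1. Normalized CPM here is scaled by the counts of tested genes with TMM factors, and is not the CPM of the library total used in the text. Star lies at 0.28, Tspo and Soat1 at 0.13.

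Across all tested genes, 0.0765% passed an adjusted p of 0.05 by the edgeR quasi-likelihood test, and of the 3 members with enough counts to be tested (Star, Tspo and Soat1) 0 passed; 0 of the 3 also had an unadjusted p under 0.05, against 8.95% of all tested genes. DESeq2 and limma-voom called 0 members as well, but they also called 0 of all 19572 and 2614 genes that they tested. For Star the fitted log2 fold change was 0.14 (SE 0.25, adjusted p = 0.911 by edgeR). Its sign and size rested on which libraries were used. Without controls 2 and 4 the remaining controls ran from 286 to 389 CPM, 4 of 6 MSNBA libraries lay above all of them, and the fitted value was 0.53 (SE 0.18, 95% interval 0.16 to 0.89, adjusted p = 0.302 by edgeR, unadjusted p = 0.00579). Those controls were left out because of their values, so that this figure is no independent evidence. The exact permutation test of CPM without them gave p = 0.081. Within the second run of columns the direction was the opposite, with 740 and 577 CPM in controls 2 and 4 against 447 and 336 CPM in MSNBA 3 and 5, a log2 fold change of -0.73 that was not tested. Leaving out control 2 alone gave a fitted value of 0.34. Leaving out another single library gave 0.011 (control 1), 0.24 (control 4), 0.058 (control 3), 0.052 (control 6), 0.070 (MSNBA 4), 0.026 (MSNBA 6) and 0.22 (MSNBA 5). With library depth in the model it was 0.37 (SE 0.29, adjusted p = 0.781 by edgeR).

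**Figure D3:**
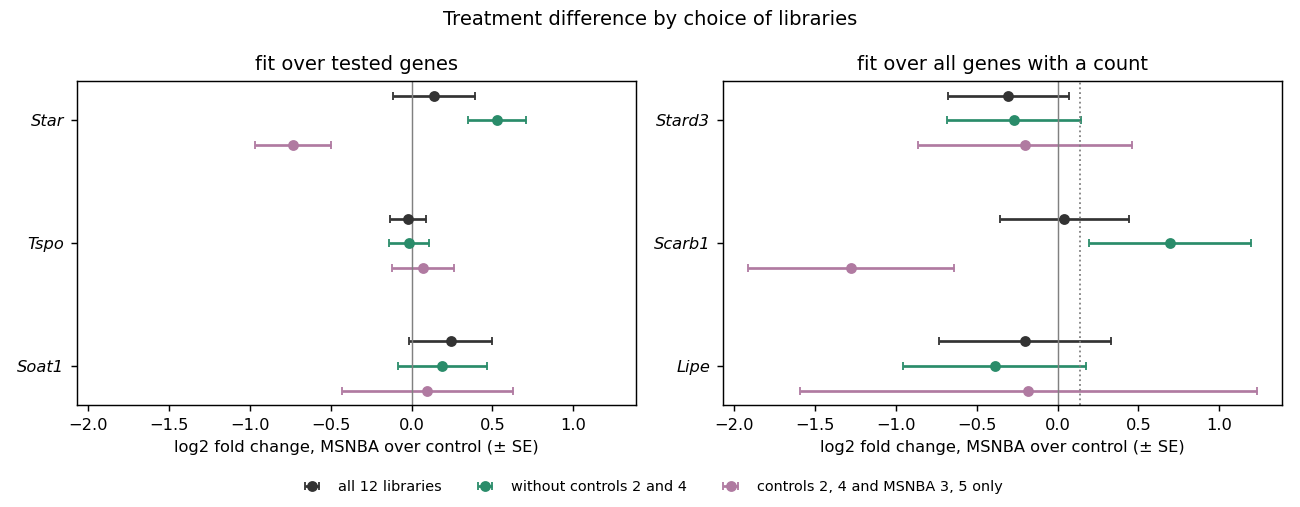
Log2 fold change of MSNBA over control with its standard error (horizontal axis) for each member, in all 12 libraries, without controls 2 and 4, and in controls 2 and 4 with MSNBA 3 and 5 only; the dotted line in the right panel is the median of tested genes in the fit over all 12 libraries, 0.14, which was 0.11 without controls 2 and 4 and 0.24 in the second run. Star moves from 0.14 to 0.53 and to -0.73 with the choice of libraries, whereas Tspo stays between -0.02 and 0.07.

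The genes whose pattern over the 12 libraries was most like that of Star were Mars1, a cytosolic methionyl-tRNA synthetase gene, Arhgef2, which encodes a guanine nucleotide exchange factor, and Srm, the spermidine synthase gene. Likeness was the root mean square difference between log2 CPM values centred on each gene's mean, over 1670 genes with a mean of at least 20 counts. It was 0.19 for Mars1, 0.22 for Arhgef2 and 0.24 for Srm, where the median gene stood at 0.54 from Star. Mars1 measured 519 CPM in control 2 and 351 CPM in control 4, and 137 to 186 CPM in the other controls. In MSNBA libraries it ran from 186 to 296 CPM, with the highest values in MSNBA 6 and MSNBA 4. Ddit3 was highest in control 2 (2259 CPM), MSNBA 6 (1847 CPM) and MSNBA 4 (1253 CPM), which are also the 3 libraries with the most Star. No relation between these genes was tested, and the plot of Star beside them shows their course.

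**Figure D4:**
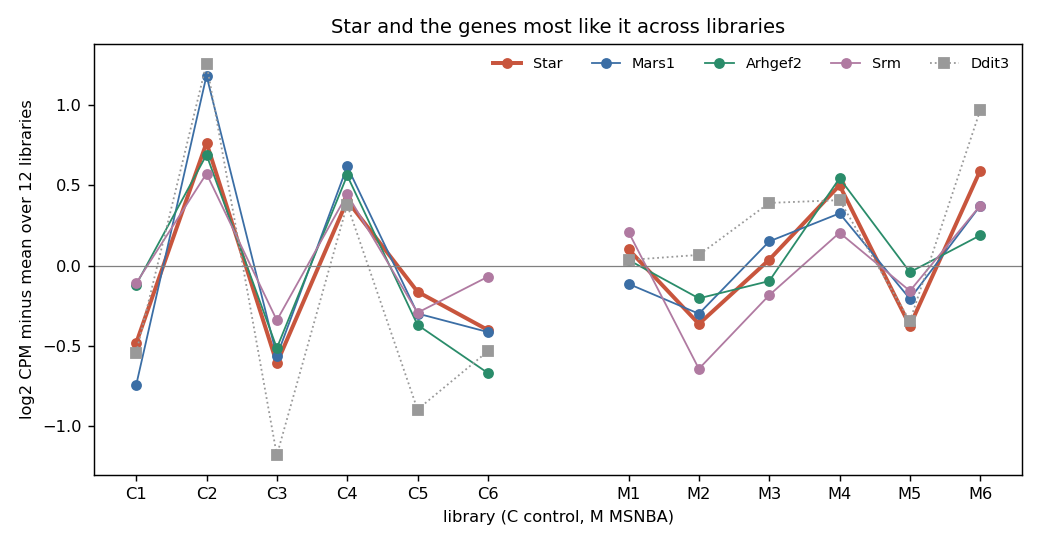
Log2 CPM of the library total minus the gene's mean over 12 libraries (vertical axis) in each library (horizontal axis) for Star, for the 3 genes most like it and for Ddit3; lines only join the points of a gene within a group. All 5 genes are above their mean in controls 2 and 4 and in MSNBA 4 and 6.

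Tspo is the translocator protein gene of the outer mitochondrial membrane, whose product binds cholesterol and whose part in steroid production is debated. Of the members it varied least in CPM relative to its mean, by 13.1% in controls and 11.1% in MSNBA (SD over mean). Its biological coefficient of variation, 0.134, was not lower than that of Soat1, 0.126. With 208 counts over all libraries, the Soat1 estimate leans on genes of similar level. Tspo measured 1097, 974, 822, 853, 812 and 811 CPM in controls 1 to 6. In MSNBA replicates 1 to 6 it measured 837, 810, 940, 786, 1002 and 1011 CPM. The groups overlapped, control 1 was the highest library, and controls 2 and 4 did not stand out. The log2 fold change was -0.023 (SE 0.11, adjusted p = 0.973 by edgeR), with a 95% interval from 0.84-fold to 1.15-fold, and the exact permutation test of CPM gave p = 0.959. Over the alternatives tested its sign turned several times, with values from -0.065 to 0.12. By annotation 1 of 7 exon records of Tspo overlaps Mcat on the other strand, which had 38 counts in controls and 73 in MSNBA against 635 and 1424 for Tspo.

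The genes most like Tspo were Cst3, the cystatin C gene, at a root mean square difference of 0.12, Rack1, a scaffold protein gene of the ribosome, at 0.13, and the ribosomal protein gene Fau at 0.14, where the median gene stood at 0.34. Tspo itself had a standard deviation of 0.16 on this scale, so that a gene with little variation also scores low. These values thus show little of a shared pattern. The ratio of Star to Tspo within a library does not depend on scaling. On the log2 scale, with 0.5 added to each count, it was -1.10 ± 0.55 in controls and -0.95 ± 0.44 in MSNBA (SD, n = 6 per group). It was highest in MSNBA 4 (-0.35), control 2 (-0.39) and control 4 (-0.56) and lowest in control 1 (-1.81), so that the groups overlapped. The difference of 0.15 gave p = 0.613 in the exact two-sided permutation test, where the smallest p that 6 against 6 libraries allow is 0.0022. It was 0.46 without controls 2 and 4 (exact permutation p = 0.119). With 1 library left out it was 0.0080 (control 1), 0.29 (control 2), 0.069 (control 3), 0.26 (control 4), 0.030 (MSNBA 4), 0.27 (MSNBA 5) and 0.084 (MSNBA 6).

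Stard3, Scarb1 and Lipe had too few counts for the filter of the test, so that their levels rest on few molecules. Stard3 encodes a late endosomal protein with a Star-related lipid transfer domain that moves sterol at contacts with the endoplasmic reticulum. It had 30 counts in the 6 controls and 52 in the 6 MSNBA libraries. It measured 25.6, 77.9, 35.7, 25.1, 67.7 and 61.8 CPM in controls 1 to 6. In MSNBA replicates 1 to 6 it measured 25.9, 33.2, 43.8, 63.7, 27.5 and 23.2 CPM. The groups overlapped almost fully, with control 2 and MSNBA 4 highest. Pooled levels were 44.1 CPM in controls (95% exact Poisson interval 29.8 to 63.0) and 32.5 CPM in MSNBA (24.3 to 42.7), and the exact permutation test of library CPM gave p = 0.297.

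Scarb1 encodes the scavenger receptor through which rodent steroidogenic cells take cholesteryl ester from high-density lipoprotein. It measured 12.8, 77.9, 23.8, 75.2, 67.7 and 13.7 CPM in controls 1 to 6. In MSNBA replicates 1 to 6 it measured 30.4, 53.1, 29.2, 31.9, 22.0 and 40.7 CPM. Controls fell on either side of the MSNBA range, with controls 2, 4 and 5 above all treated libraries and controls 1 and 6 below them. The high values rest on 6, 6 and 4 counts. Pooled levels were 33.8 CPM in controls (21.5 to 50.8) and 32.5 CPM in MSNBA (24.3 to 42.7), and the exact permutation test of library CPM gave p = 0.448. The log2 ratio of mean CPM was -0.39, but it was 0.23 without controls 2 and 4 (exact permutation p = 0.681), -0.16 without control 2 and -0.58 without control 1.

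Soat1 encodes the enzyme that esterifies cholesterol for storage. It measured 72.6, 104, 59.5, 37.6, 67.7 and 124 CPM in controls 1 to 6. In MSNBA replicates 1 to 6 it measured 94.3, 106, 84.7, 159, 60.6 and 116 CPM. MSNBA 4 alone lay above all controls, on 15 counts, and controls 2 and 4 lay on opposite sides of the control mean. The means were 77.5 ± 31.2 and 104 ± 33.3 CPM (SD, n = 6 per group), with an exact permutation p = 0.195, and the fitted log2 fold change was 0.24 (SE 0.26, adjusted p = 0.822 by edgeR). The 95% interval ran from 0.825-fold to 1.69-fold. Leaving out control 6 gave a fitted value of 0.46, and leaving out control 4, control 1 or MSNBA 4 gave 0.14, 0.16 and 0.16.

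Lipe encodes hormone-sensitive lipase, which hydrolyses stored cholesteryl ester in steroidogenic cells. It had 7, 1, 4, 1, 0 and 1 counts in controls 1 to 6, and 12, 3, 3, 1, 2 and 5 counts in MSNBA replicates 1 to 6. In CPM, control 3 (47.6) and control 1 (29.9) were highest, and control 5 was at 0, where an exact Poisson interval allows up to 62.4 CPM. Pooled levels were 20.6 CPM in controls (11.3 to 34.6) and 16.3 CPM in MSNBA (10.6 to 23.8), with an exact permutation p = 0.803 for library CPM. Of 49 exon records of Lipe, 20 overlap the antisense gene 4732471J01Rik, which had 0 counts in controls and 5 in MSNBA. The log2 ratio of Soat1 to Lipe within a library was 2.01 ± 1.30 in controls and 2.52 ± 0.57 in MSNBA (SD, n = 6 per group), a difference of 0.51 with an exact permutation p = 0.387. That difference was 0.17 without control 3 and 0.84 without control 6.

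In a fit over all genes with a count, the edgeR log2 fold changes were -0.30 for Stard3 (SE 0.37, adjusted p = 0.777), 0.041 for Scarb1 (SE 0.40, adjusted p = 0.985) and -0.20 for Lipe (SE 0.53, adjusted p = 0.908). The 95% intervals ran from -1.04 to 0.43, from -0.74 to 0.82 and from -1.25 to 0.84 on the log2 scale. At this depth each interval thus held both lower and higher levels in MSNBA. In that fit the median of the 2614 tested genes stood at 0.14 in place of -0.0082, and all 3 members lay below it. With library depth in the model the value of Stard3 was -0.013, that of Scarb1 was 0.49 and that of Lipe was -0.42. Stard3 was at -0.53 without control 1, and at -0.16, -0.13 and -0.16 without control 2, control 6 and MSNBA 1. Without controls 2 and 4 Scarb1 was at 0.69 and Lipe at -0.39. With 1 library left out Scarb1 ran from -0.30 (without control 1) to 0.30 (without control 2), and Lipe from -0.42 (without control 6) to 0.20 (without control 1).

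Around the members, 8 lists of cholesterol supply genes were read in the same fit, written with earlier results of these data known. Over all of them 0 genes passed in either direction by edgeR, DESeq2 or limma-voom. Of all tested genes 2 of 2614 passed by edgeR, 0 of 19572 by DESeq2 and 0 of 2614 by limma-voom. At an unadjusted p under 0.05 by edgeR, where 4.17% of all tested genes were higher and 4.78% lower, single genes of 4 lists were higher and 1 gene of another was lower. Over all tested genes the median fold change was -0.0082 on the log2 scale.

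In the list of lysosomal release and export, 5 of 7 members were tested, while Lipa and Npc1 had too few counts. The values of the 5 tested genes began at 0.049 for Lamp1 (SE 0.11) and had a median of 0.34, where the median of all tested genes was -0.0082. The value was largest for Npc2, the soluble carrier that hands cholesterol to the lysosomal membrane, at 0.45 (SE 0.16, adjusted p = 0.318 by edgeR). Npc2 measured 350, 260, 262, 188, 237 and 234 CPM in controls 1 to 6 and 371, 299, 382, 382, 325 and 442 CPM in MSNBA 1 to 6. The groups overlapped, with control 1 inside the treated range, and Npc2 was named for its small p within the list. For Lamp2, a lysosomal membrane protein gene, the value was 0.38 (SE 0.23, adjusted p = 0.603 by edgeR), and 0.23 without control 3. Its sign turned within the second run of columns. In the uptake list, 2 of 6 members were tested. Lrp1, an endocytic receptor gene, had -0.34 (SE 0.22), and Cd36, which encodes a scavenger receptor for lipids, had -0.28 (SE 0.25). Without MSNBA 6, MSNBA 3 or MSNBA 5 Cd36 was at -0.44, -0.18 and -0.15.

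In the ester list, 5 of 14 members were tested, with a median of 0.082. Plin2, which coats lipid droplets, had 0.60 (SE 0.26, adjusted p = 0.446 by edgeR). It met the count filter mainly through the MSNBA libraries, at 71.6 to 110 CPM against 25.1 to 81.1 CPM in controls. Its entry into the test thus depended on the group where it was high. Plin2 had 39 counts in controls and 141 in MSNBA, with pooled levels of 57.4 and 88.2 CPM. Plin3, a related coat protein gene, had -0.29 (SE 0.20), and -0.19 without control 1 or control 5. Control 1, the highest control for Plin2 at 81.1 CPM, held 19 of its 39 control counts. Without it the value of Plin2 was 0.92, resting on few control molecules. Without control 4 that value was 0.50, and with library depth in the model 0.43 (SE 0.32). In the transfer list, 5 of 21 members were tested, with a median of 0.13. Scp2, the sterol carrier protein 2 gene, had 0.48 (SE 0.22, adjusted p = 0.489 by edgeR). It measured 47.6 to 138 CPM in controls and 113 to 191 CPM in MSNBA, so that the groups overlapped. Osbpl9, an oxysterol-binding protein family gene, had -0.38 (SE 0.25), and -0.23 without control 3.

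In the mitochondrial import list, 15 of 19 members were tested, 7 with values above 0 and 8 below, and the median was -0.023. Slc25a5, an adenine nucleotide carrier gene of the inner membrane, had 0.39 (SE 0.15, adjusted p = 0.373 by edgeR). It measured 238 to 326 CPM in controls and 279 to 467 CPM in MSNBA, so that the groups overlapped. Slc25a5 was named for its small p within the list. Vdac3, a channel gene of the outer membrane, had 0.33 (SE 0.22), and 0.21 without control 1. The protease genes Lonp1 and Clpp, the former known to degrade Star in the matrix, had -0.093 (SE 0.11) and -0.15 (SE 0.22). Without controls 2 and 4 they were at -0.028 and 0.069, and without control 2 alone at -0.024 and -0.036. Lonp1 was at -0.056 without MSNBA 3 and -0.14 without MSNBA 6, and Clpp at -0.27 without control 3 and -0.089 without control 4. In the efflux list 2 of 7 members were tested, Apoe at 0.029 (SE 0.12) and the oxysterol receptor gene Nr1h2 at -0.24 (SE 0.20). Without controls 2 and 4 Nr1h2 was at -0.047, without control 2 alone at -0.14, and without MSNBA 1 at -0.11.

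**Figure D5:**
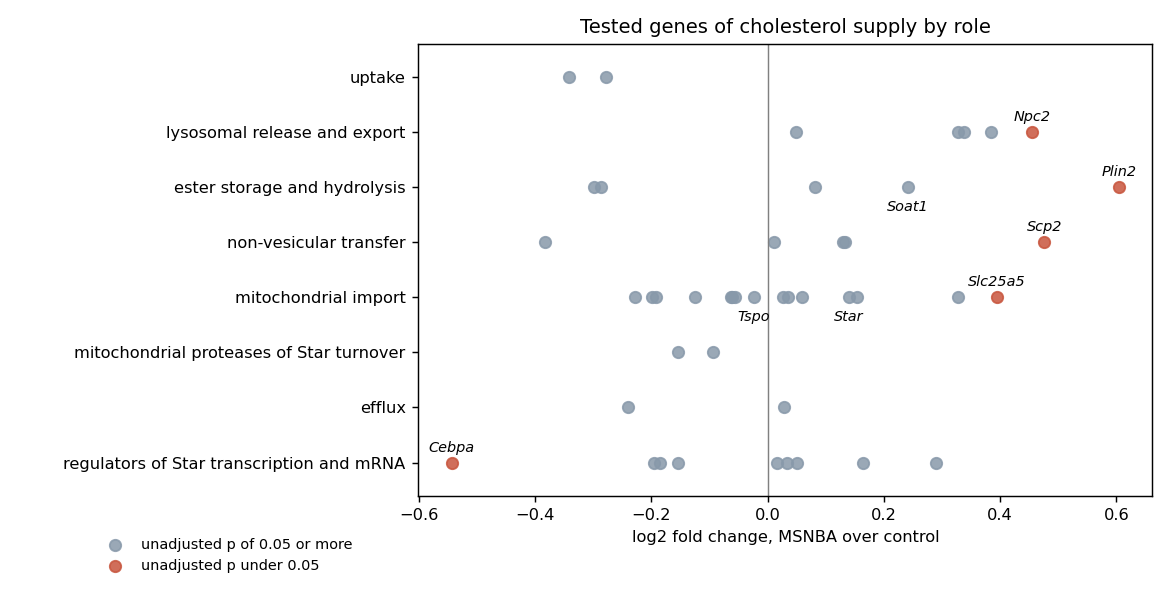
Log2 fold change of MSNBA over control (horizontal axis) of each tested gene in 8 lists of cholesterol supply (vertical axis); red points have an unadjusted p under 0.05 by edgeR, and none passed after adjustment. Plin2, which met the count filter mainly through the MSNBA libraries, lies at 0.60, and Cebpa lies at -0.54.

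Among regulators of Star transcription and mRNA, 9 of 31 members were tested, with a median of 0.017. Cebpa, which encodes a C/EBP factor, a family that binds the Star promoter, had the smallest p of these lists, and its log2 fold change by edgeR was -0.54 (SE 0.14, adjusted p = 0.101, unadjusted p = 3.12e-04). It measured 440, 571, 429, 527, 457 and 440 CPM in controls 1 to 6. In MSNBA replicates 1 to 6 it measured 336, 325, 298, 361, 380 and 285 CPM. All 6 treated libraries lay below all controls, as in 0.383% of tested genes. Controls 2 and 4 were its highest libraries, and without them the value was -0.44 (SE 0.15, adjusted p = 0.292). Nr5a1, which encodes steroidogenic factor 1, had -0.15 (SE 0.11), but -0.088 without control 2 and -0.0088 without controls 2 and 4. Star and Cebpa were both at their highest control levels in controls 2 and 4, whereas in MSNBA 6 Star was at its highest treated level and Cebpa at its lowest. The Star gene lies on chromosome 8 from 25808474 to 25815982, Tspo on chromosome 15 from 83563573 to 83574203, Stard3 on chromosome 11 from 98358367 to 98381112, Scarb1 on chromosome 5 from 125277087 to 125341094, Soat1 on chromosome 1 from 156428108 to 156474328 and Lipe on chromosome 7 from 25379527 to 25398486 of GRCm38.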

How the data were processed

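The authors deposited 1 table of raw counts per gene symbol for 12 libraries, without normalization. BWA 0.7.4.4 and mm10 are named per the submitters' processing notes. The name of the deposited table marks its counts as molecular identifiers (UMIs) of uniquely aligned reads on RefSeq genes. Which program counted them, on which annotation release and with which strand setting is not given in the sources used here, so that reads of antisense partners cannot be told apart. Members and lists were chosen with earlier results of these data known. Groups and replicate numbers were taken from the labels.

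After filterByExpr and TMM scaling, genes went into the robust quasi-likelihood F test of edgeR 4.0.16 in R 4.3.3 with treatment as the only term beside the intercept. P-values are two-sided, with Benjamini-Hochberg adjustment over 2614 genes holding 79.2% of counts, at a threshold of 0.05. The standard error is the size of the log2 fold change over the square root of F. Each member also had an exact two-sided permutation test of CPM over library totals, which makes 6 unadjusted tests, beside 2 on ratios. No libraries were identical, and all 30 pairs within groups differed beyond sampling noise (chi-square over degrees of freedom 1.15 to 3.79).

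List genes named were those past the threshold and otherwise the 2 with the smallest p in each list; 1 gene of the uptake list is not reported here. Alternatives used DESeq2 1.42.0, limma 3.58.1, other scalings and filters, a replicate block, depth as a covariate and libraries left out. Positions are from RefSeq on GRCm38.p6 and exon overlaps from GENCODE M21.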

Additional observations from a re-analysis of the deposited data

How the results depend on the processing

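No member passed in any alternative with a test, and adjusted p-values of Star ran from 0.302 to 0.999. The labels do not say whether replicate numbers pair the libraries, and pairing was not tested. Residual correlations of equal numbers ran from -0.23 to 0.48 over 1672 genes and were above 0.1 in 3 of 6 pairs. They were not compared with those of unequal numbers. With a replicate block the log2 fold change of Star was 0.20, and 0 genes were higher and 3 lower. Without the filter 8 genes were higher and 7 lower past the threshold, and Tspo (0.12), Lonp1 (0.058) and Nr5a1 (0.0070) turned sign in a fit whose median had moved to 0.14. With the filter of 20 counts in 6 libraries, which Soat1 did not pass, 1 gene was lower. With DESeq2, limma-voom or library depth 0 were lower, and with depth Nr1h2 was at 0.068. Without controls 2 and 4, 4 were higher and 3 lower, Clpp was at 0.069, Apoe at -0.042 and the CPM ratio of Scarb1 at 0.23. With single libraries left out, 0 to 1 genes were higher and 0 to 5 lower.

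Scarb1 had a log2 fold change of -0.093 with RLE scaling, -0.082 with library size alone, -0.11 with factors from the tested genes, -0.22 with DESeq2 and -1.28 within the second run of columns. Within that run the values were -0.73 for Star (-0.75 for its CPM ratio), 0.071 for Tspo, -0.0057 for Lamp2, 0.021 for Plin3 and 0.25 for Osbpl9. The CPM ratio of Tspo was -0.012 with TMM factors. With 1 library left out, fitted values ran from -0.065 to 0.043 for Tspo, -0.021 to 0.065 for Apoe, -0.30 to 0.30 for Scarb1 and -0.42 to 0.20 for Lipe, and CPM ratios from -0.032 to 0.072 for Tspo and -0.43 to 0.39 for Lipe. The causes were not tested. Depth limits Stard3, Scarb1 and Lipe most. Factors from the tested genes, the library choices for CPM ratios and the alternatives for list genes and likeness were added after the data were seen.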
